A study of Homo sapiens with 12 samples.

Results

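The solute carriers are the genes with symbols of the form SLC followed by a family number, most of which encode membrane proteins that carry small molecules across a cell or organelle membrane. Members were the genes with such a symbol in the array annotation and with a probe detected (detection p under 0.01) on at least 6 of the 12 arrays, each represented by its brightest such probe on average. Of 383 solute carrier genes with a named probe, 204 were tested, among 10196 genes tested in all. The 204 covered 51 of the 57 families on the array and were grouped by the substrate class of their family. Of the 179 genes not tested, 154 had no array with a detected probe. At the threshold, 4 members (SLC22A7, SLC25A37, SLC38A4-AS1 and SLC5A8) had exactly 6 detected arrays, and 8 genes, SLC25A33 and SLC38A5 among them, had 5 and were not tested. The symbol rule also took in 4 long non-coding RNAs (SLC12A2-DT, SLC38A4-AS1, SLC67A1-AS and SLC9A3-OT1) and 2 transcribed pseudogenes (SLC71A3P and SLC7A5P2). It further took in protein-coding genes that are not transporters, such as SLC2A4RG and SLC7A6OS. All of these stay in the counts below. The probes of SLC2A14 and SLC7A5P2 are uncertain, since their genes are near-identical copies of SLC2A3 and SLC7A5.

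HUH6, an established line from a human hepatoblastoma, a liver tumour of early childhood, received a non-targeting control siRNA (NT siRNA, 6 samples) or a GATA4 siRNA pool (GATA4 siRNA, 6 samples). GATA4 is a transcription factor whose zinc fingers bind the DNA letters GATA. Both groups were given 0.1 uM siRNA with a lipid reagent and no antibiotics for 6 h, and total RNA taken 72 h after the start was measured on Illumina HT-12 v4 beadchips, 1 array a sample. The arrays carried 48106 probes, of which between 16067 and 16804 were detected per array, and the raw array medians lay between 117.4 and 128.1. The labels number the samples of each group 1 to 6 and leave out whether a number stands for a culture of its own. The p-values therefore speak of the spread among these 12 samples, which may be technical, and the number of arrays limits the precision. GATA4 itself had a raw signal of 137.1 to 168.8 (median 141.7) with NT siRNA and 108.3 to 119.3 (median 113.75) with GATA4 siRNA. The groups did not overlap, and GATA4 was detected on 6 of 6 and 0 of 6 arrays, which puts the fall at a factor of at least 1.19 (exact two-sided permutation p = 0.00216, the smallest that 6 against 6 samples can give). Of the liver markers looked up, AFP, ALB, GPC3, SERPINA1, APOA1, TTR and KRT8 were detected on all 12 arrays, while DLK1 was detected on 0 and KRT18 on 1.

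Solute carriers move their substrates down a gradient or against it by coupling to sodium, protons or a counter-substrate. In liver cells they take up bile acids, amino acids, sugars, metals and vitamins from blood, release glucose and iron, and, as the SLC25 family, pass metabolites through the inner mitochondrial membrane. Several act in pairs: the SLC3 heavy chains carry SLC7 light chains to the plasma membrane, and SLC39 proteins bring zinc into the cytosol while SLC30 proteins remove it.

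Promoter windows are shown for the gene called with and without the replicate number in the fit (SLC35G1), for 2 called genes whose window holds a GATA motif (SLC6A4 and SLC7A8), and for the gene with the largest fall between replicate sets (SLC10A1). Each is the 250 bases before an annotated start, from RefSeq on GRCh38.p14, written 5′ to 3′ on the gene's strand. Capitals mark a GATA motif on either strand, which was searched as AGATAA, as its form ending in G (AGATAG), as the form starting with T (TGATAA) and as the form with both changes (TGATAG). SLC35G1 lies at chr10:93893728-93893977 (plus strand), SLC6A4 at chr17:30235698-30235947 (minus), SLC7A8 at chr14:23154394-23154643 (minus) and SLC10A1 at chr14:69797242-69797491 (minus).
SLC35G1: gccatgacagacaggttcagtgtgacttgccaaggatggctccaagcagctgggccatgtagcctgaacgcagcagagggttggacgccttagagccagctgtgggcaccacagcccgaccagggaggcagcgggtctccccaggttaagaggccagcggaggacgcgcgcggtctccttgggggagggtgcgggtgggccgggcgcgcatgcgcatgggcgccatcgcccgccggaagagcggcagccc
SLC6A4: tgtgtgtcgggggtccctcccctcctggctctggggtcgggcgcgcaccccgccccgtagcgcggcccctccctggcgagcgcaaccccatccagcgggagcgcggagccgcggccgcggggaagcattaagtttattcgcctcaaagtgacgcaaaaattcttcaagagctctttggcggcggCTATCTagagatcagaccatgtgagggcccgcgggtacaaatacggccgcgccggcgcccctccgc
SLC7A8: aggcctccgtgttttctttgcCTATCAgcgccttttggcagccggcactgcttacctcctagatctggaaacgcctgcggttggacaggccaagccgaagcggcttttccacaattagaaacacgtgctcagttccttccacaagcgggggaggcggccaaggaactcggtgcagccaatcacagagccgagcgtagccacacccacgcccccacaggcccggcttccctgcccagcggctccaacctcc
SLC10A1: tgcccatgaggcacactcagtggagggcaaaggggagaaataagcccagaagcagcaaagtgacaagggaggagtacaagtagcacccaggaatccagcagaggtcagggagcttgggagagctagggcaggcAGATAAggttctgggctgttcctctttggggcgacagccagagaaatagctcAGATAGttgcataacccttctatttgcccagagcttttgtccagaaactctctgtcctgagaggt

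One of these motifs stood in 22.3% of 35116 such windows over all genes, in 14.9% of the 248 windows of the 173 members with one, and in 3 of 16 windows of the 10 called members with one. The SLC35G1 window held none, SLC6A4 held CTATCT starting 66 bases before the start, and SLC7A8 held CTATCA starting 229 bases before the start shown, 1 of the 2 windows with a match among its 4 annotated windows. SLC10A1 held AGATAA and AGATAG, at 117 and 65 bases. Its window, like those of SLC6A4 and SLC7A8, was picked among windows with a motif, so a match there was fixed by the choice. A match describes the letters in the window only.

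GATA4 siRNA changed few solute carriers, and by little. With limma and the replicate number as a block, 6 members rose and 8 fell (adjusted p under 0.05 over all 10196 genes), or 6.86% of 204, where 6.41% of all genes were called, 2.65% up and 3.77% down. No called change reached 1.5-fold. An unadjusted p under 0.05 was found in 53 members (26%), but the share of all genes below it was not counted. That count therefore says nothing particular to the members. The median log2 change was 0.0033 over the members and 0.0020 over all genes. Without the block 0 members rose and 1 fell, SLC35G1 (0.706% of all genes called, 0.196% up and 0.51% down). In that fit 20 members (9.8%) had an unadjusted p under 0.05, again without a count over all genes. The amino acid class held 8 of the 14 calls among its 36 tested genes, and the remaining 6 lay in the sugar, zinc import, nucleotide sugar, vitamin, and chloride and phosphate classes. Levels below are log2 signals after background correction, and they compare samples for 1 gene, not genes with each other. Counts of replicate numbers that rose or fell pair the samples by label alone. Within replicates 1 to 3 and 4 to 6 same-numbered samples did not deviate together (correlations -0.060 to 0.012).

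**Figure D1:**
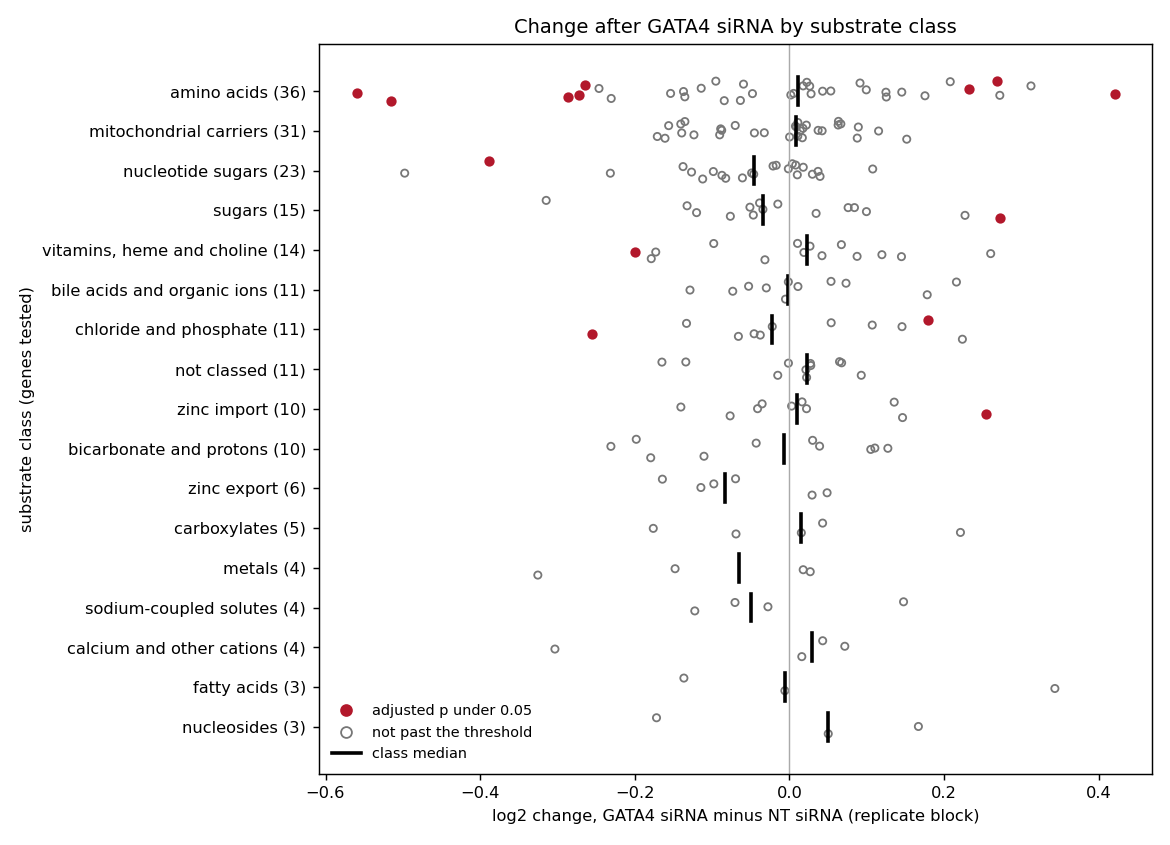
Log2 change of each tested solute carrier gene, GATA4 siRNA minus NT siRNA with the replicate number as a block (x axis), by substrate class with at least 3 tested genes (y axis, number tested in brackets). Filled points passed the adjusted threshold, open points did not, and bars are class medians. Called genes lie at both ends of the amino acid row, and the 31 mitochondrial carriers all lie within -0.17 and 0.15 with none called.

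Among glutamate and neutral amino acid carriers of the SLC1 family, SLC1A2 and SLC1A1, both sodium-coupled glutamate transporters, fell, while SLC1A5, a glutamine and neutral amino acid exchanger, rose. SLC1A2 had a signal of 5.56 to 6.40 (median 5.88) with NT siRNA and 4.77 to 5.79 (median 5.46) with GATA4 siRNA. The groups overlapped, the signal was lower in 5 of 6 same-numbered samples, and the probe was detected on 6 of 6 NT siRNA arrays but on 3 of 6 GATA4 siRNA arrays. This was a log2 change of -0.56 (SE 0.15, adjusted p = 0.0236). In the authors' normalised values, which keep the background, it was -0.19 (adjusted p = 0.0227). The call was lost without replicate 1, 4 or 5.

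SLC1A1 ranged from 7.09 to 8.60 (median 7.84) with NT siRNA and from 6.87 to 8.32 (median 7.56) with GATA4 siRNA. Most of that range lay between replicates 1 to 3 and 4 to 6, and within each number GATA4 siRNA was the lower, in 6 of 6. The log2 change was -0.27 (SE 0.067, adjusted p = 0.0151), and -0.18 in the authors' values (adjusted p = 0.0182). It lost its call when arrays were scaled to equal medians in place of quantiles (adjusted p = 0.0836).

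SLC1A5 lay at 8.97 to 9.64 (median 9.30) with NT siRNA and at 9.43 to 9.67 (median 9.59) with GATA4 siRNA. The low NT siRNA samples were replicates 4, 5 and 6, and replicate 3 was the single number without a rise. The log2 change was 0.27 (SE 0.068, adjusted p = 0.0180). It was 0.07 within replicates 1 to 3 (adjusted p = 0.752) and 0.47 within replicates 4 to 6 (adjusted p = 0.000654), and the call was lost without replicate 4, 5 or 6. Tested directly, the change in the second set exceeded that in the first by 0.39 (SE 0.11, adjusted p = 0.395), which did not pass.

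Both called subunits of heteromeric amino acid transporters fell. SLC3A1, the heavy chain that partners SLC7A9 in cystine and basic amino acid uptake, ranged from 6.29 to 6.79 (median 6.52) with NT siRNA and from 5.69 to 6.37 (median 6.02) with GATA4 siRNA. It was lower in 6 of 6 numbers although the groups overlapped. On the log2 scale the change was -0.51 (SE 0.099, adjusted p = 0.00225), and -0.22 in the authors' values (adjusted p = 0.00204). SLC7A8, a light chain for neutral amino acids, ranged from 9.64 to 10.37 (median 9.92) with NT siRNA and from 9.33 to 10.05 (median 9.67) with GATA4 siRNA. It was also lower in 6 of 6 numbers, by -0.29 (SE 0.055, adjusted p = 0.00222). Their partners were not called: SLC3A2, the heavy chain of SLC7A8, changed by 0.0018, and SLC7A9 by 0.10 (adjusted p = 0.373). Of the other SLC3A2 light chains, SLC7A5 had 0.15 (adjusted p = 0.081) and SLC7A6 -0.14 (adjusted p = 0.141). A dimmer probe of SLC7A6 showed 0.04 (adjusted p over all tested probes 0.775). Over the SLC7 family, 0 rose and 1 fell of 8 tested.

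Of the 4 tested SLC6 genes, which are sodium- and chloride-coupled, 2 rose and 1 fell. SLC6A9, a glycine transporter, went from 6.55 to 7.19 (median 6.89) with NT siRNA to 7.07 to 7.64 (median 7.25) with GATA4 siRNA. The groups overlapped only between the higher NT siRNA samples of replicates 1 to 3 and the GATA4 siRNA samples of replicates 4 to 6, and 6 of 6 numbers rose. That is a log2 change of 0.42 (SE 0.082, adjusted p = 0.00234), and 0.25 in the authors' values (adjusted p = 0.0023). SLC6A12, which carries betaine and GABA, had 8.93 to 9.19 (median 9.03) and 9.13 to 9.42 (median 9.32), a rise in 6 of 6 numbers of 0.23 (SE 0.053, adjusted p = 0.00793). With arrays scaled to equal medians its adjusted p was 0.0961. SLC6A4, the serotonin transporter, classed here by its family, fell from 8.27 to 8.83 (median 8.56) to 8.03 to 8.63 (median 8.22), lower in 6 of 6 numbers. Its log2 change was -0.26 (SE 0.064, adjusted p = 0.0127), and the call was lost with equal medians (adjusted p = 0.0651) and without replicate 6. The fourth, SLC6A6, a taurine transporter, had -0.25 (adjusted p = 0.166).

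**Figure D2:**
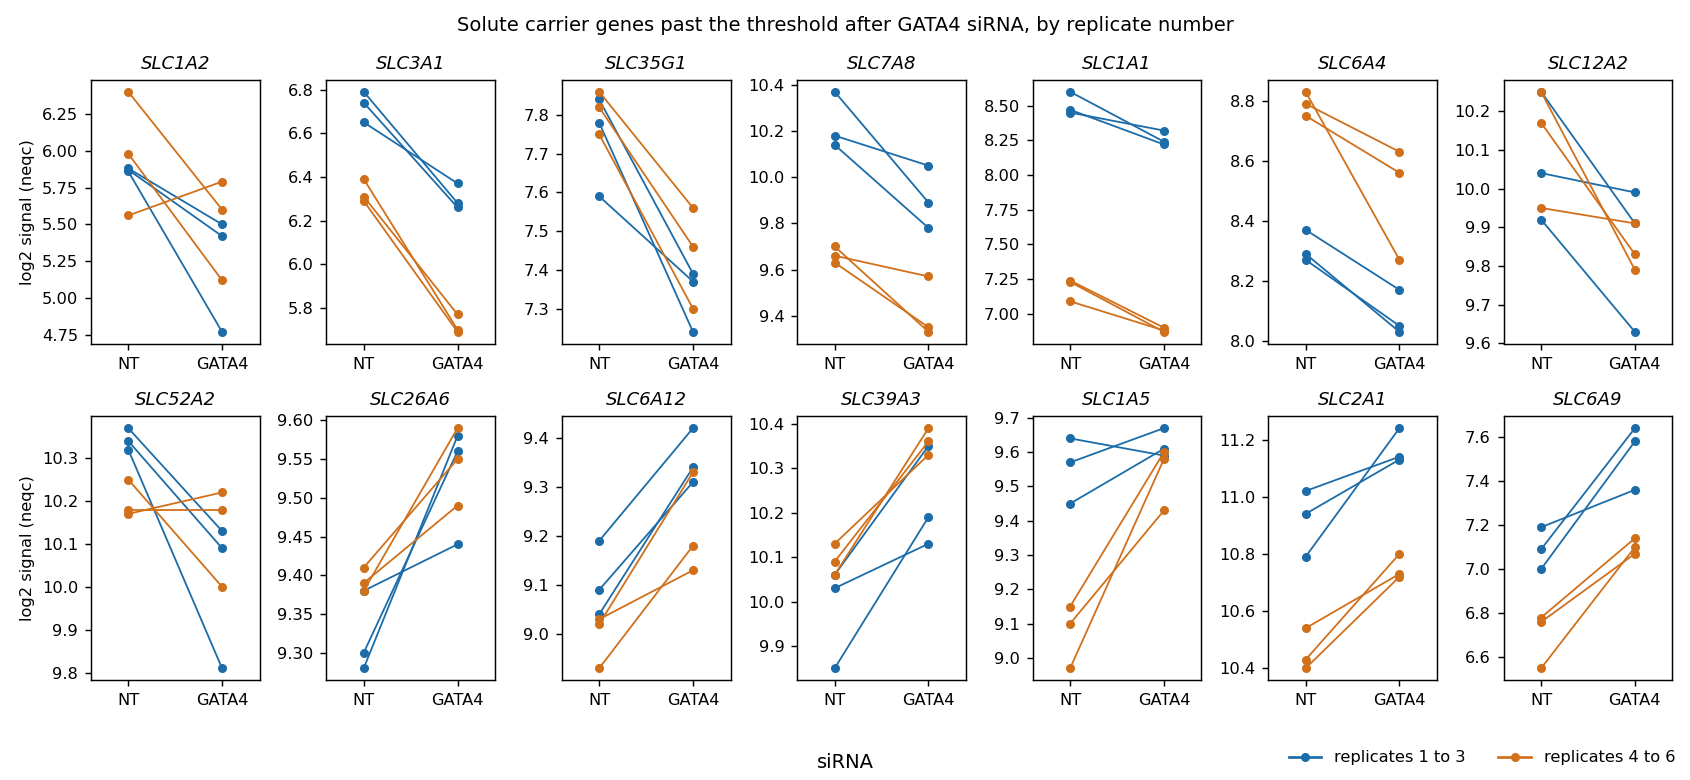
Log2 signal (y axis, own scale in each panel, not starting at 0) of the 14 called solute carrier genes with NT siRNA and GATA4 siRNA, each line joining the samples of 1 replicate number, in blue for replicates 1 to 3 and orange for 4 to 6. Lines run the same way in all 6 numbers for 11 of the 14 genes, and in SLC1A1 the replicate sets stand apart (-1.35) by more than the siRNA groups do (-0.27).

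Among sugar carriers, SLC2A1, a facilitative glucose transporter, rose and was the single call of 9 SLC2 genes and of 15 genes in the class. It ranged from 10.40 to 11.02 (median 10.67) with NT siRNA and from 10.72 to 11.24 (median 10.96) with GATA4 siRNA. Every number rose, while the levels of replicates 1 to 3 with NT siRNA lay near or above those of replicates 4 to 6 with GATA4 siRNA. The log2 change was 0.27 (SE 0.049, adjusted p = 0.00119). SLC2A3, another glucose carrier, had -0.05 (adjusted p = 0.550), SLC2A2, the low-affinity hepatocyte glucose carrier, -0.13 (adjusted p = 0.230), and SLC2A5, a fructose carrier, -0.04 (adjusted p = 0.800). None of 9 tested genes for hexose phosphorylation and glucose release was called, the lowest p being that of HK1, a hexokinase (0.10, adjusted p = 0.25).

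For zinc, SLC39A3, an importer, rose as the single call of 10 SLC39 genes. Its signal was 9.85 to 10.13 (median 10.06) with NT siRNA and 10.13 to 10.39 (median 10.34) with GATA4 siRNA, and the groups met near 10.13. It was higher in 6 of 6 numbers, by 0.25 (SE 0.048, adjusted p = 0.00201). SLC39A1 had 0.15 (adjusted p = 0.066) and SLC39A14, which also carries iron, -0.14 (adjusted p = 0.0909). None of the 6 SLC30 exporters was called, with SLC30A3 lowest in p (-0.16, adjusted p = 0.122), nor was any of 7 tested genes of zinc storage and sensing, such as the metallothionein MT1F (0.08, adjusted p = 0.310).

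In the classes of inorganic ions, SLC12A2, the sodium, potassium and chloride cotransporter, fell from 9.92 to 10.25 (median 10.11) to 9.63 to 9.99 (median 9.87), lower in 6 of 6 numbers. Its log2 change was -0.25 (SE 0.057, adjusted p = 0.00704). A dimmer probe of the gene showed 0.02, and the mean of both was -0.12 (adjusted p = 0.157). SLC26A6, an exchanger of chloride with bicarbonate and oxalate, had 9.28 to 9.41 (median 9.38) with NT siRNA and 9.44 to 9.59 (median 9.55) with GATA4 siRNA. It was 1 of 3 members whose groups did not overlap, as in 1.68% of all genes, and rose by 0.18 (SE 0.052, adjusted p = 0.0395). Its dimmer probe showed 0.01, and the call was lost with the mean of the probes (0.10, adjusted p = 0.553), with equal medians (adjusted p = 0.234) and without replicate 1, 3, 4, 5 or 6.

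SLC35G1, a membrane protein of a family best known for nucleotide sugar carriers, fell from 7.59 to 7.86 (median 7.80) to 7.24 to 7.56 (median 7.38). All GATA4 siRNA samples lay below all NT siRNA samples. The log2 change was -0.39 (SE 0.070, adjusted p = 0.00123, or 0.0220 without the block), and -0.26 in the authors' values (adjusted p = 0.00117). The third member whose groups did not overlap, SLC25A38, a mitochondrial glycine carrier, was not called (-0.16, adjusted p = 0.113). In the class of SLC35G1, SLC35D4 had -0.50 with a wide error (SE 0.16, adjusted p = 0.0678). SLC52A2, a riboflavin transporter, had 10.17 to 10.37 (median 10.28) with NT siRNA and 9.81 to 10.22 (median 10.11) with GATA4 siRNA, and was lower in 4 of 6 numbers. Its log2 change of -0.20 (SE 0.060, adjusted p = 0.0479) was -0.34 within replicates 1 to 3 (adjusted p = 0.0413) and -0.06 within replicates 4 to 6 (adjusted p = 0.659). Tested directly, the change in the second set was higher than that in the first by 0.27 (SE 0.10, adjusted p = 0.509), and the call was lost without replicate 1, 2, 3 or 4, with array weights, with equal medians (adjusted p = 0.148) and with the mean of probes per gene (adjusted p = 0.0561).

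None of the 31 mitochondrial carriers was called. Their changes lay between -0.17 and 0.15 with a median of 0.0090, and the lowest p belonged to SLC25A44, a branched-chain amino acid carrier (-0.14, adjusted p = 0.107). SLC25A5 and SLC25A3, which carry adenine nucleotides and phosphate for ATP synthesis, had 0.01 (SE 0.043) and -0.03 (SE 0.042). Dimmer probes of SLC25A3 had -0.13 (adjusted p over all tested probes 0.0716) and -0.02. SLC25A13, the aspartate and glutamate carrier of the urea cycle, had 0.09 (adjusted p = 0.279). Of 10 tested genes for import into the inner membrane and outer membrane channels 0 were called, TIMM10, a carrier import chaperone, having the lowest p (-0.13, adjusted p = 0.139). The mitochondrial pyruvate carrier subunit MPC1, 1 of 3 tested genes of pyruvate carriers and monocarboxylate transporter chaperones, fell by 0.28 on the log2 scale (SE 0.047, adjusted p = 0.000627; 0.0588 without the block).

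In the other classes with at least 3 tested members no gene was called. The member with the lowest p was SLC31A2, a copper transporter of vesicles (-0.33, SE 0.11, adjusted p = 0.0808), SLC41A1, a magnesium transporter (-0.30, adjusted p = 0.105), or SLC51B, a subunit of a bile acid exporter (0.18, adjusted p = 0.0965), in their classes. Smaller changes were those of SLC27A2, which takes up and activates fatty acids (-0.14, adjusted p = 0.0909), SLC16A5 of the monocarboxylate family (-0.18, adjusted p = 0.160) and SLC29A2, a nucleoside carrier (0.17, adjusted p = 0.157). SLC4A11 (-0.20, adjusted p = 0.220), of the bicarbonate transporter family, and SLC5A9 (0.15, adjusted p = 0.454), a sodium-coupled sugar carrier, completed them.

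Of the solute carriers listed for their role in liver, 15 were tested and 0 were called after GATA4 siRNA, where 6.41% of all genes were. SLC10A1, the sodium-coupled bile acid importer, had -0.13 (SE 0.096, adjusted p = 0.498), and SLC13A5, a citrate importer, -0.07 (adjusted p = 0.672). SLC40A1, the iron exporter, had 0.02 (SE 0.046, adjusted p = 0.881), and SLC37A4, which brings glucose 6-phosphate into the endoplasmic reticulum, -0.08 (adjusted p = 0.380). SLC7A2, a basic amino acid carrier, had -0.06 (adjusted p = 0.628), SLC25A15, the ornithine carrier, 0.04 (adjusted p = 0.745), and SLC25A20, the acylcarnitine carrier, 0.09 (adjusted p = 0.576). The widest change, 0.34 for SLC27A5, a bile acid ligase (SE 0.13, adjusted p = 0.127), came from a probe detected on 2 of 6 NT siRNA and 5 of 6 GATA4 siRNA arrays. SLC22A9 and SLC17A1 were detected on 0 arrays and SLC47A1 on 1.

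Transporters and partner genes outside the SLC symbols were counted in the same fit, where 6.41% of all genes were called. Here 1 of 20 tested ABC transporters rose: ABCC3, an exporter of conjugated bile acids (0.27, SE 0.059, adjusted p = 0.00667; 0.899 without the block). None of 4 SLCO transporters was called (SLCO2B1 lowest in p, -0.07, adjusted p = 0.387). Of 5 tested genes of the sodium-potassium pump, which maintains the gradient that sodium-coupled carriers use, FXYD2, a regulatory subunit, rose (0.37, SE 0.069, adjusted p = 0.00173; 0.271 without the block). Of 15 tested genes of amino acid use and sensing, GCLC, which makes the glutathione precursor, rose (0.22, SE 0.055, adjusted p = 0.0189; 0.607 without the block).

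The solute carriers differed far more between replicates 4 to 6 and replicates 1 to 3 of both siRNA groups than between siRNAs. These sets were defined from these arrays, as those which the first principal component (57.3% of the variance) parts, and the labels name no batch, so the calls describe them. With the siRNA in the fit, 46 members were higher and 75 lower in replicates 4 to 6, or 59.3% of 204, where 51.1% of all genes were called, 25.9% higher and 25.2% lower. The median difference was -0.06 over the members and 0.01 over all genes. At least 1.5-fold were 4 higher and 14 lower members, where 1.91% and 5.26% of all genes were. The sets did not overlap in 63 members (25.7% of all genes), with 40 lower and 23 higher (14.3% and 11.5%). Of the 14 genes called after GATA4 siRNA, 9 also differed between the sets.

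Summed signals of several marker lists moved with the sets, and their part in the differences was not tested. Each sum took the brightest probe of every listed marker on the array, detected or not. For kidney tubule, 3 of 4 listed markers had a probe, and CUBN was detected on 0 arrays. Their linear signals summed to 1348 to 1685 in replicates 1 to 3 and to 375 to 458 in replicates 4 to 6. LRP2 alone carried that fall (mean log2 signal 10.43 and 8.24), and the other tested marker, the member SLC34A1, had 6.06 and 6.29. The 8 fibroblast markers summed to 10968 to 12975 and 7385 to 8601, with COL3A1, DCN and LUM detected on 0 arrays. The 4 macrophage markers summed to 720 to 849 and 450 to 536, with PTPRC on 0 and the CD163 probe used on 3. The 9 of 10 liver markers with a probe summed to 94383 to 99407 and 84304 to 88231. Among the tested ones, GPC3 (13.25 and 13.28) and SERPINA1 (13.84 and 13.88) were no lower in mean log2 signal in replicates 4 to 6. The 5 cholangiocyte markers, at 19851 to 21678 and 19063 to 20364 with KRT7 on 0, overlapped between the sets. So did the 4 endothelial markers, at 472 to 624 and 509 to 596 with VWF, CDH5 and KDR on 0. In each list the ranges of the siRNA groups overlapped. HUH6 is an established line, so the lists name marker genes and not cell types shown to be present. In such bulk RNA, fewer cells expressing a gene and less of its RNA per cell cannot be told apart.

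**Figure D3:**
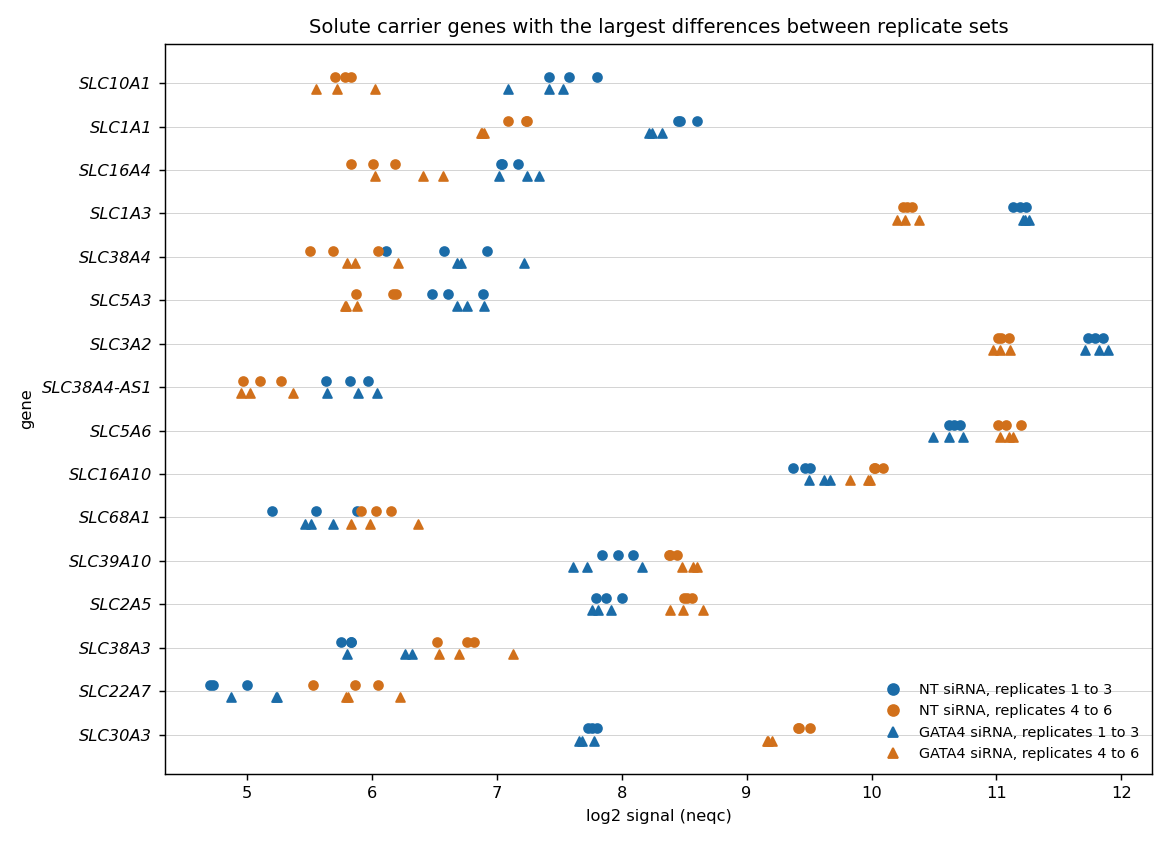
Log2 signal (x axis, not starting at 0) of the 8 solute carrier genes most lower and the 8 most higher in replicates 4 to 6 (y axis), 1 point a sample, circles for NT siRNA and triangles for GATA4 siRNA, blue for replicates 1 to 3 and orange for 4 to 6. Colours part in every row except SLC38A4 and SLC68A1. SLC22A7 and SLC38A4-AS1 were each detected in a single set, through which alone they entered the test.

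The largest fall was in SLC10A1, the bile acid importer whose window is printed above, and the largest rise in SLC30A3, a zinc exporter into vesicles. SLC10A1 ranged from 7.09 to 7.80 (median 7.48) in replicates 1 to 3 and from 5.55 to 6.02 (median 5.75) in replicates 4 to 6. The sets were far apart in both siRNA groups, by -1.83 with NT siRNA and -1.58 with GATA4 siRNA, and by -1.71 overall (SE 0.10, adjusted p = 2.33e-13). SLC30A3 ranged from 7.66 to 7.80 (median 7.75) and from 9.16 to 9.51 (median 9.30), a difference of 1.58 (SE 0.056, adjusted p = 4.63e-18).

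In the amino acid class, 17 of 36 genes were lower in replicates 4 to 6, 8 were higher and the rest did not pass. Over all genes 25.2% were lower and 25.9% higher. SLC1A1 ranged from 8.22 to 8.60 (median 8.39) and from 6.87 to 7.24 (median 6.99), a difference of -1.35 (SE 0.062, adjusted p = 9.09e-16). SLC1A3, a further glutamate transporter, ranged from 11.13 to 11.26 and from 10.20 to 10.38 (-0.93, SE 0.043, adjusted p = 9.8e-16). SLC3A2, the heavy chain, was at 11.71 to 11.89 and at 10.97 to 11.11 (-0.76, SE 0.043, adjusted p = 6.87e-14), and its light chains SLC7A5 (-0.50), SLC7A6 (-0.36) and SLC7A8 (-0.53) were lower with it. SLC3A1 was lower by -0.49 while its light chain SLC7A9 was higher by 0.45. Among system A and N carriers, SLC38A4 was lower (-0.85, SE 0.13, adjusted p = 6e-06; the sets overlapped) and SLC38A3, a glutamine carrier of hepatocytes, higher (0.78, SE 0.11, adjusted p = 2.35e-06). The antisense RNA SLC38A4-AS1 was detected on 6 of 6 arrays of replicates 1 to 3 and on 0 of 6 of replicates 4 to 6. It was at least 1.33-fold lower, but entered the test through those 6 arrays alone. The detection filter thus favoured a fall, so no p-value is given, though the 17 lower genes include SLC38A4-AS1. Whether the array's probes separate SLC38A4-AS1 from SLC38A4 was not tested.

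**Figure D4:**
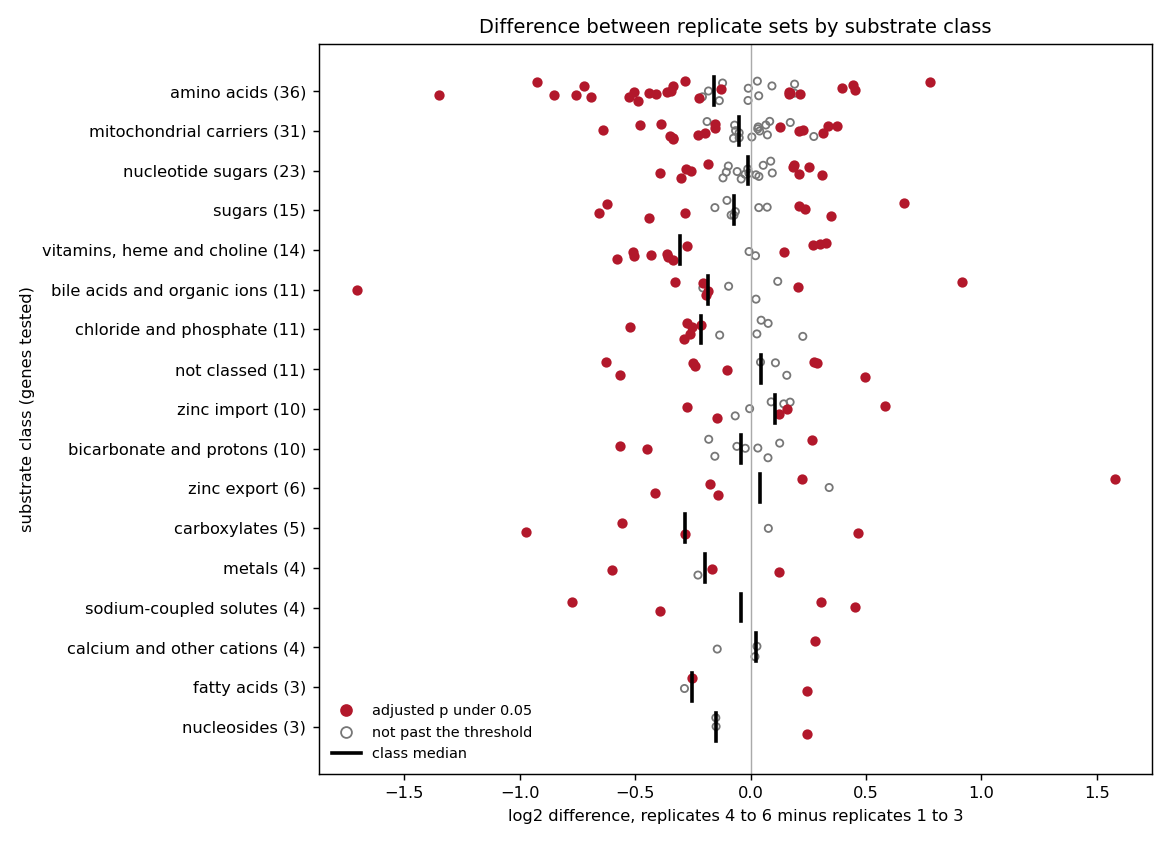
Log2 difference of each tested solute carrier gene, replicates 4 to 6 minus replicates 1 to 3 (x axis), by substrate class with at least 3 tested genes (y axis, number tested in brackets). Filled points passed the adjusted threshold, open points did not, and bars are class medians. The spread runs from -1.71 (SLC10A1) to 1.58 (SLC30A3), and the class medians lie between -0.30 (vitamins, heme and choline) and 0.11 (zinc import).

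Sugar carriers went both ways, 4 higher and 4 lower of 15, where 25.9% of all genes were higher and 25.2% lower. SLC2A5 ranged from 7.76 to 8.00 and from 8.39 to 8.65 (0.66, SE 0.061, adjusted p = 8.07e-10), SLC37A4 was higher by 0.35, and SLC2A2 by 0.21. SLC2A1 was lower by -0.44 (adjusted p = 7.63e-09) and SLC2A8, an intracellular sugar carrier, by -0.62. Of 10 zinc importers 3 were higher and 2 lower, led by SLC39A10, at 7.61 to 8.16 and 8.38 to 8.60 (0.58, SE 0.079, adjusted p = 7.6e-07). Of 6 zinc exporters 2 were higher and 3 lower.

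Of 31 mitochondrial carriers 6 were higher and 10 lower, all within -0.64 and 0.37, where 25.9% of all genes were higher and 25.2% lower. The ends were SLC25A51, the NAD carrier (-0.64, SE 0.079), and SLC25A10, the dicarboxylate carrier (0.37, SE 0.068). A dimmer probe of SLC25A51 showed -0.04. SLC25A5, SLC25A3 and SLC25A4 had differences of 0.03, -0.05 and 0.01 and did not pass. Vitamin, heme and choline carriers had 8 lower and 4 higher of 14, among them the ascorbate carrier SLC23A1 (-0.58) and the thiamine carrier SLC19A3 (0.32). The multivitamin carrier SLC5A6 was higher (0.45, SE 0.047, adjusted p = 7.01e-09) and the inositol carrier SLC5A3 lower (-0.77, SE 0.10, adjusted p = 7.68e-07). In the monocarboxylate family SLC16A4 was lower (-0.97, SE 0.10, adjusted p = 7.93e-09), with 7.02 to 7.34 and 5.83 to 6.57, and SLC16A10, an aromatic amino acid carrier, higher (0.47, SE 0.055, adjusted p = 6.83e-08). SLC68A1, from an unclassed family, was higher by 0.50 (SE 0.13, adjusted p = 0.0020).

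Of the 15 tested liver carriers, 6 were higher and 7 lower in replicates 4 to 6, where 25.9% and 25.2% of all genes were. Besides SLC10A1 and SLC38A4, the lower ones were SLC40A1 (-0.60), SLC25A20 (-0.34), SLC13A5 (-0.28), SLC39A14 (-0.27) and SLC27A2 (-0.25). The higher ones were SLC22A7, SLC38A3, SLC37A4, SLC2A2, SLC25A15 and SLC25A13. SLC22A7, an organic anion carrier, was detected on 0 of 6 arrays of replicates 1 to 3 and 6 of 6 of replicates 4 to 6. It was at least 1.36-fold higher, but likewise entered the test through those 6 arrays alone. The detection filter thus favoured a rise, so no p-value is given, though the 6 higher carriers include SLC22A7. SLC7A2 had -0.01 (adjusted p = 0.888).

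Fitted within the sets, GATA4 siRNA gave 0 members higher and 1 lower in replicates 1 to 3, SLC52A2. Of all genes 1.19% were called there, 0.834% down. In replicates 4 to 6 it gave 5 higher and 9 lower, where 5.13% of all genes were called, 1.89% up and 3.24% down. At an unadjusted p under 0.05 were 36 (17.6%) and 37 (18.1%) members, and the share of all genes was not counted. No member was called in both sets. All 14 genes called over the whole series had the same sign in both, which calling them over both sets together favours, so it is no separate support. The 14 called in replicates 4 to 6 held 6 that were not called over the whole series, SLC51B, SLC29A2, SLC2A2, SLC30A3, SLC23A2 and SLC7A6. Tested directly, the change differed between the sets in 0 members at the adjusted threshold, with the block and without it, and in 22 (10.8%) at an unadjusted p under 0.05, where 8.16% of all genes were. Beside SLC1A5, the members nearest the threshold were SLC2A2 (0.04 in the first set and -0.30 in the second, adjusted p = 0.395) and SLC51B (0.01 and 0.35, adjusted p = 0.396).

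**Figure D5:**
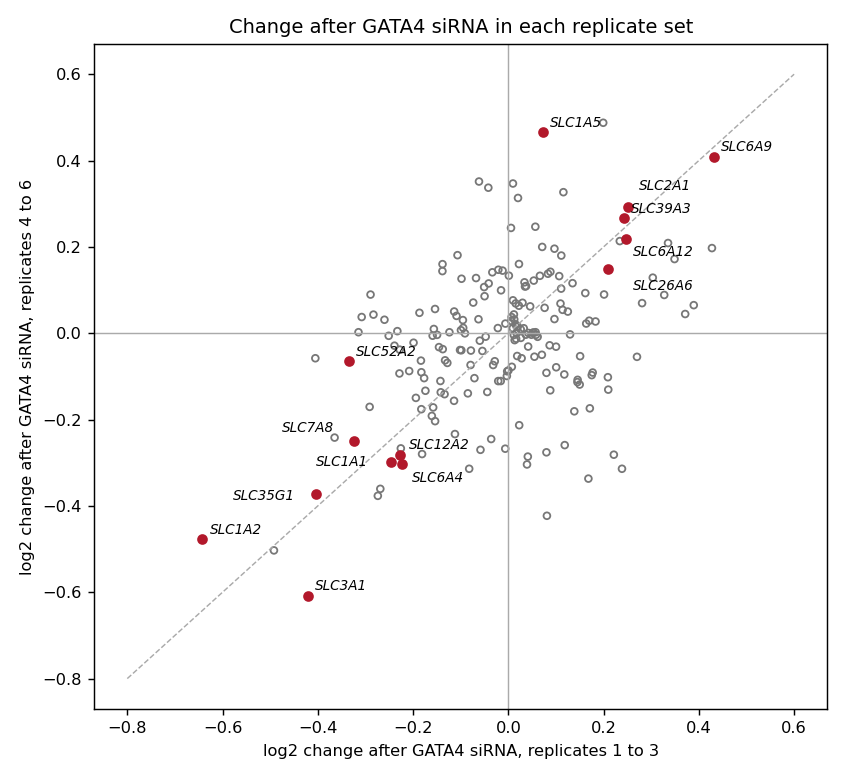
Log2 change after GATA4 siRNA of each tested solute carrier gene in replicates 1 to 3 (x axis) and in replicates 4 to 6 (y axis), with the 14 genes called over all replicates filled and named, and the dashed line marking equal change. All named genes lie to the lower left or the upper right of 0, which calling them over all replicates favours. SLC1A5 lies near 0 on the x axis and SLC52A2 near 0 on the y axis.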

How the data were processed

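The authors deposited raw bead signal intensity with a detection p-value for each probe and array, and a table of normalised log2 values, made with GenomeStudio per the submitters' processing notes, its version not given in the sources used here. Samples were grouped by the labels. The deposited intensity values were background-corrected with limma 3.58.1 (R 4.3.3, statmod 1.5.0) from the detection p-values, with an offset of 16, then quantile normalised and put on a log2 scale (neqc). The lowest raw signal was 82.2. Of 30112 probes with 1 symbol, 30073 were matched by gene ID to RefSeq and 39 kept the array's symbol. Probes detected (p under 0.01) on at least 6 of 12 arrays were kept, 16339 in all, and the brightest per gene was fitted with lmFit and eBayes with trend. P-values were adjusted by Benjamini-Hochberg over 10196 genes, two-sided.

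Same-numbered samples of the 2 groups deviated together (correlations 0.548 to 0.604), so the number was a block. Within replicates 1 to 3 and 4 to 6 these correlations were -0.060 to 0.012, so the numbers shared little beyond the set. With the set as the block 6 members rose and 10 fell.

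The members and lists were chosen with earlier results of these data known. Named are all called members, the member with the lowest p in classes without a call, the 8 most higher and 8 most lower between sets, the listed liver carriers, GATA4, and the called or lowest-p partner genes. Further genes were named after their values were seen. The fits were tested on simulated data.

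Alternatives were the authors' normalised log2 values, equal medians, an offset of 50, detection on at least 3 or on all 12 arrays, the mean of probes, robust eBayes, array weights, no block, the set as block, each set alone, and leaving out each replicate number. A bound on a fold takes, on each array where a gene was not detected, the higher of its own signal and the lowest signal among detected probes. Levels of different probes were not compared.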

Additional observations from a re-analysis of the deposited data

Results flagged for a closer look

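In the 96 groups of 6 samples of the named members, 2 had a sample far from the others. Chance flags about 1 in 20, or 4.8, in groups without a split, but each group here held both replicate sets. A difference between the sets widens the range of a group and can hide such a sample. The counts can therefore not be compared. SLC5A9, a sodium-coupled sugar carrier, had 6.23 in NT siRNA replicate 2, with the other NT siRNA samples at 6.5 to 6.61. SLC27A5, a bile acid ligase, had 5.16 in GATA4 siRNA replicate 6, with the other GATA4 siRNA samples at 5.70 to 5.79.

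Of 48 dimmer tested probes of members, which the comparisons did not use, 1 was called with the replicate block. It belongs to SLC44A1, a choline transporter, and changed by -0.28 (SE 0.065, adjusted p over all tested probes 0.0116), whereas the brightest probe of the gene, used above, had 0.02 (SE 0.051, adjusted p = 0.892).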

How the results depend on the processing

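Without the replicate block 0 members rose and 1 fell, and with replicates 1 to 3 alone 0 rose and 1 fell, against 6 and 8 with it. Leaving out each replicate number gave 4 to 8 higher and 6 to 8 lower after GATA4 siRNA, 38 to 45 higher and 63 to 69 lower between sets, 0 for the difference of the change between sets, and -1.24 to -1.09 for the fitted log2 change of GATA4, which is no measured fold since GATA4 was detected on 0 of 6 GATA4 siRNA arrays. Other alternatives moved no count by over 1.5 times. The fitted GATA4 change was -0.42 in the authors' values, which keep the background. Of the 14 called genes, SLC35G1 alone kept its call without the block. Adjusted p without it was 0.0976 to 0.926 in the others. SLC2A1, SLC39A3, SLC3A1, SLC7A8, SLC6A9, SLC12A2, SLC1A1, SLC6A12 and SLC35G1 kept theirs when any 1 replicate number was left out. No called change turned sign, and 3 values below the threshold did. A called set difference of the 16 named genes kept its direction and call in all 173 alternatives and 96 left-out fits. These genes were picked for the largest differences between sets drawn from the same arrays, which favours that result. It is therefore no separate support. The symbols of the platform annotation were already current, so that alternative gave the same values. Dim probes limit the folds: GATA4, SLC1A2, SLC27A5, SLC35D4, SLC68A1, SLC22A7 and SLC38A4-AS1 were not detected on some arrays. The cause of these dependences was not tested.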
